A study of Mus musculus with 6 samples.

Results

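The 10 genes described here encode proteins of the fast-twitch skeletal muscle fibre, and they were taken by symbol from the 24411 genes of the deposited table. They are the fast myosin heavy chains Myh2 (fibre type IIa), Myh1 (IIx) and Myh4 (IIb), the fast regulatory light chain Mylpf, the fast troponins Tnnc2, Tnni2 and Tnnt3, the Z-disc actinin Actn3, the calcium buffer parvalbumin (Pvalb) and the calcium pump SERCA1 (Atp2a1). All 10 were found, and all 10 passed the filter on low counts. Total RNA from Achilles tendons was sequenced in 6 libraries, all from C57BL/6 mice at an age of 18 weeks. Of these, 3 came from mice labelled Scx-Cre/Piezo1 GOF (Piezo1 GOF below) and 3 from mice labelled WT, for which the labels name neither a Cre nor a Piezo1 allele. Scx-Cre places the recombinase under sequence of Scx, a transcription factor gene of tendon cells, and the GOF allele is a gain-of-function form of Piezo1, an ion channel opened by mechanical force. The driver is therefore a tendon one, while the genes described here belong to muscle fibres. The comparison asks how transcripts of the mutant tendon differ from those of WT tendon. Whether each library is a separate animal is not stated, so a p-value here reflects only library-to-library spread, which may be technical.

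A muscle fibre contracts when calcium binds troponin C, which shifts troponin I and troponin T on the thin filament and lets myosin heads pull on actin. Fast and slow fibres build this machine from different genes for the same part, so that nearly each fast member has a slow counterpart. Among fast fibres, IIa fibres are the more oxidative and fatigue-resistant, IIb fibres are the fastest and most glycolytic, and IIx fibres lie between them. Actn3, Pvalb and SERCA1 are known for their high levels in fast fibres, with Pvalb most abundant in IIb fibres of rodents. The Achilles tendon joins the calf muscles to the heel, and a dissected tendon can carry muscle fibres. In these bulk libraries, fewer fibres and less RNA per fibre cannot be told apart.

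The 3 fast myosin genes lie in a row on the plus strand of chromosome 11 (mm10; GENCODE vM21), with Myh2 at 67171027 to 67197517, Myh1 at 67200052 to 67224575 and Myh4 at 67238029 to 67260446. The gap is 2.53 kb from Myh2 to Myh1 and 13.5 kb from Myh1 to Myh4, and the perinatal Myh8 follows 16.7 kb beyond Myh4. Tnni2 (142441808 to 142444410) and Tnnt3 (142498836 to 142516009) lie 54.4 kb apart on the plus strand of chromosome 7, with Lsp1 between them. Chromosome 7 also holds Mylpf (127208890 to 127214298, plus strand) and Atp2a1 (126445858 to 126463108, minus strand). Tnnc2 is on chromosome 2 (164777161 to 164779967), Pvalb on chromosome 15 (78191114 to 78206400) and Actn3 on chromosome 19 (4861216 to 4877909), each on the minus strand.

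Promoter sequences in RefSeq (build GRCm38.p6) were matched for 7 of the 10 members, with 8 promoters in all. Those of the myosins are shown because 2 of these genes, Myh2 and Myh4, were the pair of members least alike over the libraries. Each runs 5′ to 3′ from 250 bases before the annotated start to 30 bases past it, on the plus strand at chr11:67170777-67171056 for Myh2, chr11:67199852-67200131 for Myh1 and chr11:67237562-67237841 for Myh4. The Pvalb promoter (minus strand, chr15:78206371-78206650) is shown for its shared motif, and that of Tnnc2 (minus strand, chr2:164779705-164779984) as one of a member that varied little in WT and holds none of the marked motifs. Capitals mark TATAAA, the MEF2 consensus and the longest run common to the 3 myosins.
Myh2: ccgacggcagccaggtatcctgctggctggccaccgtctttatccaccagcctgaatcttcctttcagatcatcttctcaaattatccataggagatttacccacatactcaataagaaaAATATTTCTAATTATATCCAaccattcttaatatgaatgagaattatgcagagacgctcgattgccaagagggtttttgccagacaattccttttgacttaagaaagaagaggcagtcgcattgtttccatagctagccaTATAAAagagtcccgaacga
Myh1: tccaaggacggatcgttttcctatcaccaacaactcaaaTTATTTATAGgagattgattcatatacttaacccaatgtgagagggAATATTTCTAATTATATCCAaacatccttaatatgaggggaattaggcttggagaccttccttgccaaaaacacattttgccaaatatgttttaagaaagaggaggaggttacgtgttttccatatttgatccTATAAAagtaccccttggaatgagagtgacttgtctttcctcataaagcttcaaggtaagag
Myh4: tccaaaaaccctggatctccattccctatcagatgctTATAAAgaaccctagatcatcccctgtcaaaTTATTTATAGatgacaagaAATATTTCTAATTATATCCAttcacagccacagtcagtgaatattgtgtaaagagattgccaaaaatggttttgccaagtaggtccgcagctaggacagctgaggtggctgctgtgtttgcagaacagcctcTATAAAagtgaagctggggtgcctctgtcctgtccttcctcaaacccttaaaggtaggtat
Pvalb: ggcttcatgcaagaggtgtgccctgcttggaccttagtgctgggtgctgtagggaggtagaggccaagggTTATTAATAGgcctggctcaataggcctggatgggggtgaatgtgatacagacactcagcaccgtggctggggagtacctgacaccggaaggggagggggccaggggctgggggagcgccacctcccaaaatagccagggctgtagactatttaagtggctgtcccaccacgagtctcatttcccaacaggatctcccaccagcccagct
Tnnc2: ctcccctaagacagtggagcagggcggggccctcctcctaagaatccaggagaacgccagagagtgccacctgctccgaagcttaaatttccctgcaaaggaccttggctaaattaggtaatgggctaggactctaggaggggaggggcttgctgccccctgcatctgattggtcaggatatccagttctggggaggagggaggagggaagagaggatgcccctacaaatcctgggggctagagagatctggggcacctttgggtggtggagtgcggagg

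The common run, aatatttctaattatatcca, is 20 bases long and begins at -130 in Myh2, -165 in Myh1 and -163 in Myh4, counted in bases from the start. It is held by 3 of 32851 promoters, those of these myosins. Motifs were searched on both strands of windows of 300 bases. TATAAA was in 3 of the 8 member promoters, those of the myosins, and in 13.6% of all promoters. On the strand shown it begins at -32 in Myh1 and at -213 and -31 in Myh4, but in Myh2 it lies past the annotated start, at 10. Offsets count from each promoter's own annotated start, which need not be the gene start given above. The consensus of MEF2, a family of muscle transcription factors, was in 3 of 8, namely Myh1, Myh4 and 1 of the 2 Pvalb promoters, and in 3.19% of all promoters. In each of these 3 promoters the MEF2 match begins between -211 and -180. In Myh1 and Myh4 letters of this match also read as TATAAA on the other strand. The E-box CANNTG, the site of myogenic factors such as MyoD, was in 5 of 8 member promoters and in 72.3% of all. The motif TCAGGTTT, known as the MEF3 site, was in 0 of 8 and in 1.31% of all. The CArG consensus of serum response factor was in 1 of 8, that of Myh4, and in 1.63% of all. A match is a description of letters, not a bound site.

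Total counts lay between 8131527 and 12631659 in Piezo1 GOF and between 8519513 and 17180856 in WT. Levels are in CPM, which scales each library's counts to the same effective total, given in the order of replicates 1 to 3. Piezo1 itself was at 178, 128 and 152 CPM in Piezo1 GOF and at 144, 115 and 103 CPM in WT, with overlapping groups (log2 fold change 0.34 ± 0.23 SE; edgeR adjusted p = 0.442). Tenocyte markers, 10 genes such as Tnmd, Fmod and Col1a1, were detected in every library. They took 2.70%, 5.50% and 3.44% of counts in Piezo1 GOF and 1.603%, 0.456% and 0.953% in WT. Several libraries stood apart. WT replicate 2 had the smallest share of tenocyte markers. WT replicate 1 had 0.379% of counts from 6 Schwann cell markers, against 0.0149% to 0.0661% in the other 5 libraries. Piezo1 GOF replicate 2 had the smallest share of fibre-neutral sarcomere genes, which are 11 structural genes common to fast and slow fibres such as Acta1, Ttn and Neb. Their share was 5.38%, 2.07% and 4.82% in Piezo1 GOF and 6.00%, 12.3% and 11.4% in WT. This raw share was thus lower in every mutant library than in every WT library. It exceeded the share of tenocyte markers in every library except Piezo1 GOF replicate 2. On the CPM scale the sums of fibre-neutral genes overlapped, since Piezo1 GOF replicate 1 had 56836 CPM and WT replicate 1 had 54888 CPM. The other markers (macrophage, endothelial, pericyte and smooth muscle, adipocyte and erythroid) each took under 1% of counts in every library.

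The 10 fast-fibre genes took 1.48%, 0.440% and 1.70% of counts in Piezo1 GOF and 1.78%, 3.06% and 1.24% in WT. The genotypes overlapped, since WT replicate 3 lay below Piezo1 GOF replicates 1 and 3. The means were 1.20 ± 0.671% in Piezo1 GOF and 2.03 ± 0.934% in WT (SD, n = 3 per genotype; p = 0.4 by a two-sided exact permutation test). With 3 libraries against 3, the smallest p this test allows is 0.1.

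No fast-fibre gene passed the test between the genotypes. Each fold change below is a log2 value of Piezo1 GOF relative to WT with its standard error (SE). The test was edgeR's quasi-likelihood fit, adjusted by Benjamini-Hochberg across 13466 genes, with a threshold of 0.05. Of the 10 members 0 were called, against 0.0149% of all genes tested. At an unadjusted p under 0.05 the count was also 0 of 10, where all genes gave 9.59% lower and 10.2% higher. DESeq2, the exact test of edgeR and limma voom called 0 of 10 as well, against 5.98%, 5.12% and 0.861% of all genes. Of the 10 members 9 had a negative fold change, as did 50.3% of all genes, and the median was -0.56, beside a median of -0.00448 over all genes tested. The range ran from -1.63 for Actn3 to 0.79 for Pvalb. The negative median turned to 0.66 when libraries were scaled to their fibre-neutral sarcomere counts, where that of all genes was 1.47. The share of fibre-neutral genes, given above, was lowest in Piezo1 GOF replicate 2 and highest in WT replicate 2, as was that of the fast members. In WT replicate 3 it was 11.4%, while the share of the fast members there, 1.24%, was the lowest in WT. The part of the fibre-neutral share in these fold changes was not tested.

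**Figure D1:**
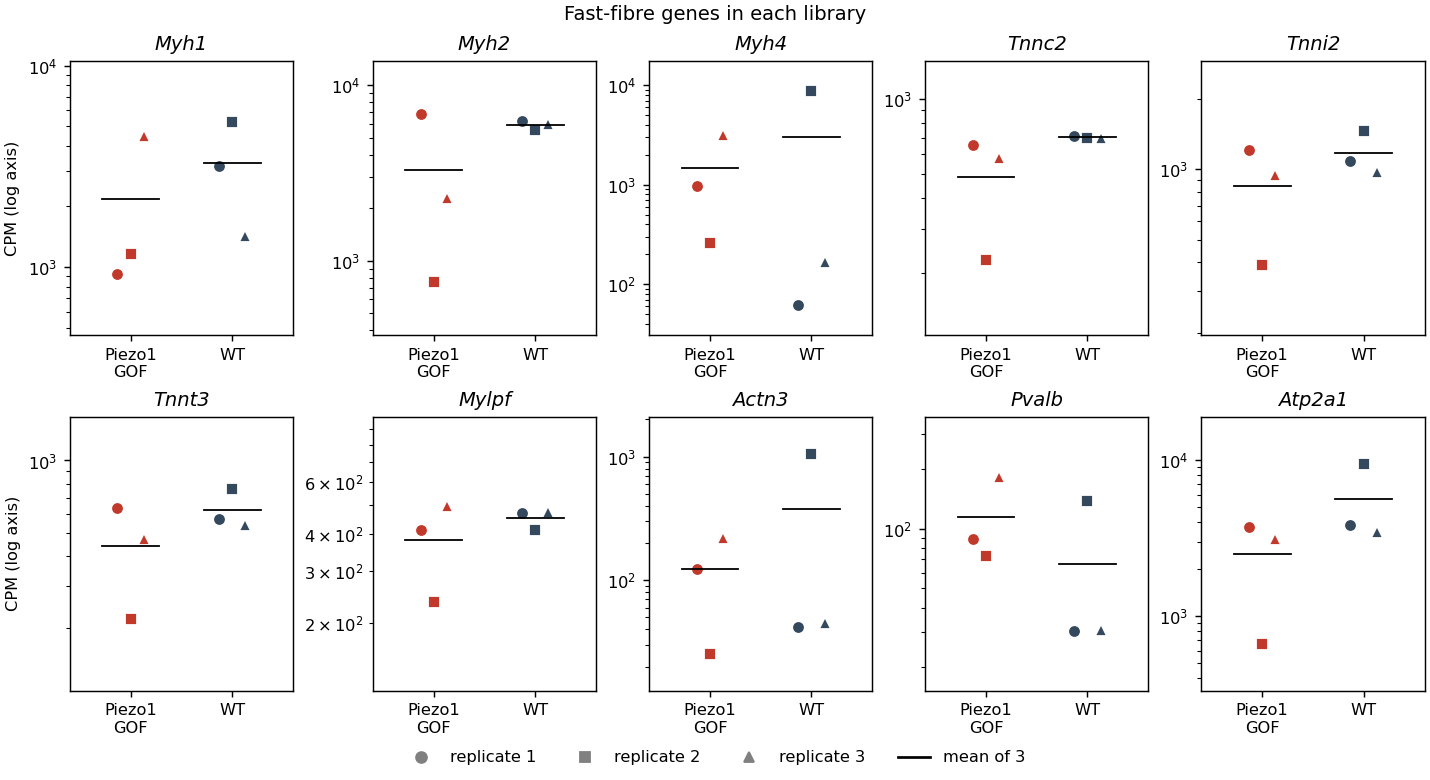
CPM of each fast-fibre gene (log axis) in the 3 Piezo1 GOF libraries and the 3 WT libraries, with symbols for replicates 1 to 3 and a bar at each genotype's mean. Tnnc2 sits between 694 and 711 CPM in WT, while Myh4 spreads from 61.5 to 8736 CPM there.

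The 3 motor protein genes varied more between libraries than the troponin genes did. Myh2, the IIa heavy chain, was at 6874, 751 and 2281 CPM in Piezo1 GOF and at 6285, 5543 and 5999 CPM in WT. The WT libraries lay within 1.13-fold of each other, while the Piezo1 GOF libraries spanned 9.15-fold, with replicate 1 above all WT libraries and replicates 2 and 3 below them. The fold change was -0.85 ± 0.72 (SE; edgeR adjusted p = 0.533). Myh1, the IIx heavy chain, was at 919, 1158 and 4477 CPM in Piezo1 GOF and at 3186, 5261 and 1426 CPM in WT. Piezo1 GOF replicate 3 stood with the 2 higher WT libraries and the other mutants lay below all WT libraries, and the fold change was -0.59 ± 0.71 (edgeR adjusted p = 0.664). Myh4, the IIb heavy chain, was at 979.8, 262 and 3131 CPM in Piezo1 GOF and at 61.5, 8736 and 166 CPM in WT.

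Thus WT replicate 2 held 142-fold more Myh4 than WT replicate 1, and all 3 mutant libraries lay above 2 of the 3 WT libraries. The Myh4 fold change was -1.04 ± 1.54 (edgeR adjusted p = 0.733). Leaving out WT replicate 2 gave 3.67 (edgeR adjusted p = 0.278), so its sign rests on 1 library. Expected counts of Myh1, Myh2 and Myh4 were not whole in any of the 6 libraries, so reads were divided between genes of like sequence. In the longest coding transcripts, 19.7% of the 50-base windows of Myh1 also occur in Myh2 and 10.5% in Myh4, and 26.1% occur in at least 1 of Myh2, Myh4, Myh3, Myh7 and Myh8. The share found in at least 1 of the other 5 was 26.7% for Myh2 and 18.6% for Myh4. The levels of the 3 myosins are therefore uncertain, by an amount that these shares do not bound, above all where 1 is low beside the others, as Myh4 is in WT replicate 1.

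Levels of the 3 heavy chains were compared per kilobase of their longest coding transcript, which is 6083 bases for Myh2, 6081 for Myh1 and 6016 for Myh4. Of their summed counts per kb, the IIb chain Myh4 took 11.3%, 12.2% and 31.9% in Piezo1 GOF and 0.653%, 45.0% and 2.22% in WT. Myh1 took 10.5%, 53.3% and 45.1% in Piezo1 GOF and 33.4%, 26.8% and 18.8% in WT. Myh2 took 78.3%, 34.6% and 23.0% in Piezo1 GOF and 65.9%, 28.2% and 79.0% in WT. The leading isoform thus differed between libraries, with Myh2 first in Piezo1 GOF replicate 1 and WT replicates 1 and 3, Myh1 in Piezo1 GOF replicates 2 and 3, and Myh4 in WT replicate 2. Each of the 3 isoforms had overlapping genotypes.

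Ratios of isoforms within a library do not depend on how libraries are scaled. The log2 ratio of Myh4 over Myh1 averaged -0.84 ± 1.16 in Piezo1 GOF and -2.67 ± 3.23 in WT, a difference of 1.83. That of Myh4 over Myh2 averaged -1.28 ± 1.65 in Piezo1 GOF and -3.71 ± 3.87 in WT, a difference of 2.44. That of Myh1 over Myh2 averaged -0.43 ± 2.14 in Piezo1 GOF and -1.04 ± 1.0002 in WT, a difference of 0.61 (SD, n = 3 each). None of the 3 differences passed, with two-sided exact permutation p of 0.5, 0.4 and 0.7 (each 0.7 after adjustment over the 3). Each was smaller than the SD in WT, but the first 2 were larger than the SD in Piezo1 GOF. The last changed sign to -0.10 without Piezo1 GOF replicate 3. The difference of Myh4 over Myh1 was 0.33 and that of Myh4 over Myh2 was 0.97 without WT replicate 1, and they were 3.54 and 4.63 without WT replicate 2.

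With the slow heavy chain Myh7 added, the 3 fast isoforms made up 70.6%, 62.7% and 82.9% of the adult myosin counts per kb in Piezo1 GOF and 63.6%, 57.9% and 39.9% in WT. The mutant mean of 72.1 ± 10.2% exceeded the WT mean of 53.8 ± 12.3% by 18.3 percentage points (SD, n = 3 per genotype; p = 0.2 by the exact permutation test). Piezo1 GOF replicate 2, at 62.7%, lay just below WT replicate 1, at 63.6%. Myh7 shares sequence with its neighbour Myh6, the alpha heavy chain of heart, which had 3.04 to 162 CPM in Piezo1 GOF and 1.61 to 1186 CPM in WT, so the Myh7 level is uncertain.

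**Figure D2:**
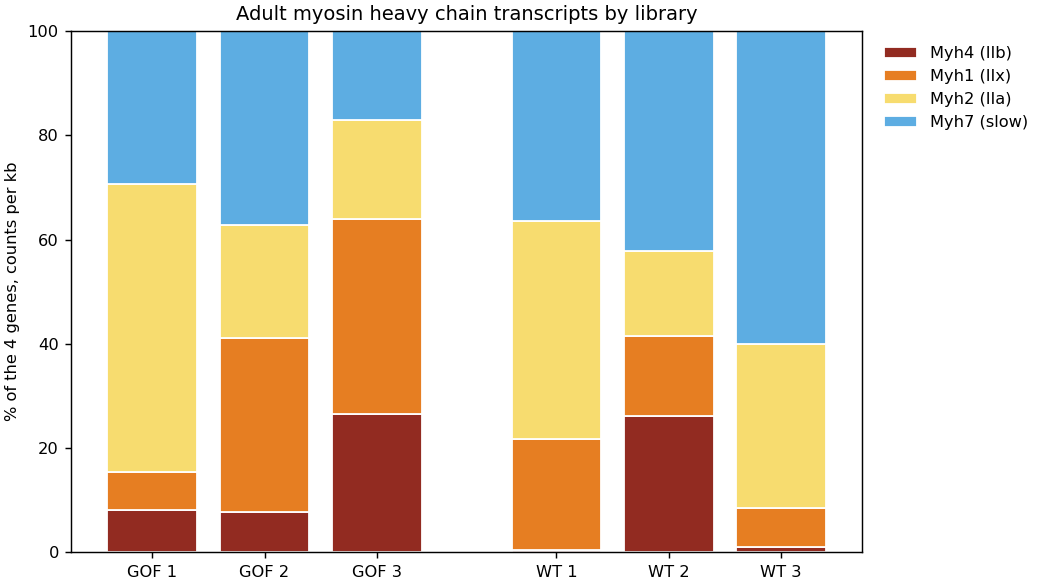
Stacked bars of the share (%) of Myh4, Myh1, Myh2 and Myh7 in their summed counts per kb, for each of the 3 Piezo1 GOF and 3 WT libraries. Myh4 takes 26.5% in Piezo1 GOF replicate 3 and 26.0% in WT replicate 2, but 0.415% in WT replicate 1.

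Mylpf, the regulatory light chain that sits on the neck of fast myosin, varied least of all members. It was at 411, 235 and 497 CPM in Piezo1 GOF and at 469, 411 and 472 CPM in WT. Piezo1 GOF replicate 2 was the lowest library and replicate 3 the highest. The fold change was -0.24 ± 0.32 (SE; edgeR adjusted p = 0.698), and it was 0.03 without Piezo1 GOF replicate 2.

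The fast troponin subunits had much the same profile over the libraries. Tnnc2, the calcium-binding subunit, was at 653, 225 and 578 CPM in Piezo1 GOF and at 711, 697 and 694 CPM in WT. Every mutant library lay below every WT library, replicate 1 narrowly and replicate 2 by the most. Tnnc2 was the 1 member of 10 whose genotypes did not overlap, against 12.1% of all genes lower in Piezo1 GOF in this way, and its fold change was -0.53 ± 0.40 (edgeR adjusted p = 0.480). Tnni2, the inhibitory subunit, was at 1213, 391 and 942 CPM in Piezo1 GOF and at 1091, 1455 and 974 CPM in WT. Tnnt3, the tropomyosin-binding subunit, was at 631, 218 and 468 CPM in Piezo1 GOF and at 572, 761 and 538 CPM in WT. In both genes Piezo1 GOF replicate 2 was the lowest and WT replicate 2 the highest, and Piezo1 GOF replicate 1 lay above WT replicates 1 and 3. Their fold changes were -0.47 ± 0.44 for Tnni2 and -0.51 ± 0.40 for Tnnt3 (edgeR adjusted p = 0.579 and 0.5001).

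Patterns were compared as log2(CPM + 1) centred on each gene's mean over the 6 libraries, with the root-mean-square difference between genes as the measure of likeness. The most alike of all pairs of members were Tnni2 and Tnnt3, which lie 54.4 kb apart, with a difference of 0.0569. Next came Tnnc2 with Tnnt3 (0.181) and Tnnc2 with Tnni2 (0.185). The least alike were Myh2 and Myh4 (2.71), which have Myh1 between them on chromosome 11. These values describe 6 libraries that share their depth and muscle content across genes.

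Actn3, the alpha-actinin that anchors thin filaments at the Z disc of fast fibres, was at 122, 25.5 and 219 CPM in Piezo1 GOF and at 42.1, 1051 and 44.9 CPM in WT. As with Myh4, WT replicate 2 stood far above the rest, by 25.0-fold over WT replicate 1, and Piezo1 GOF replicates 1 and 3 lay above the other 2 WT libraries. The fold change was -1.63 ± 1.21 (SE; edgeR adjusted p = 0.472), and it was 1.49 without WT replicate 2 (edgeR adjusted p = 0.418).

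Calcium handling was represented by a buffer and a pump, which differed in direction. Pvalb, which binds calcium in the cytoplasm and speeds relaxation, was at 88.8, 72.7 and 183 CPM in Piezo1 GOF and at 30.5, 138 and 31.0 CPM in WT. All mutant libraries lay above WT replicates 1 and 3, and WT replicate 2 lay among them. The fold change of 0.79 ± 0.60 was the only positive one among the members and did not pass (SE; edgeR adjusted p = 0.489). Atp2a1, the SERCA1 pump that returns calcium to the sarcoplasmic reticulum, was at 3729, 663 and 3098 CPM in Piezo1 GOF and at 3862, 9505 and 3474.5 CPM in WT. WT replicate 2 was 2.74-fold above WT replicate 3, Piezo1 GOF replicate 2 was the lowest, and the other 4 libraries lay between 3098 and 3862 CPM. As for the myosins, its expected counts were not whole in any library. The fold change was -1.17 ± 0.70 (edgeR adjusted p = 0.372).

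The members differed widely in spread within a genotype. The pooled SD of log2(CPM + 1) within genotypes was 2.95 for Myh4, 2.17 for Actn3, 1.13 for Myh2, 1.12 for Atp2a1, 1.10 for Myh1 and 0.998 for Pvalb. These lay between the 97.6th and the 99.9th percentile of all genes tested. The troponins and Mylpf had SDs of 0.403 to 0.642, between the 63.1st and the 87.8th percentile. Per kb, Tnni2 stood first of the 10 members in 5 libraries and Atp2a1 in WT replicate 2. Actn3 stood last in the 3 Piezo1 GOF libraries and WT replicate 3, Myh4 in WT replicate 1 and Pvalb in WT replicate 2.

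**Figure D3:**
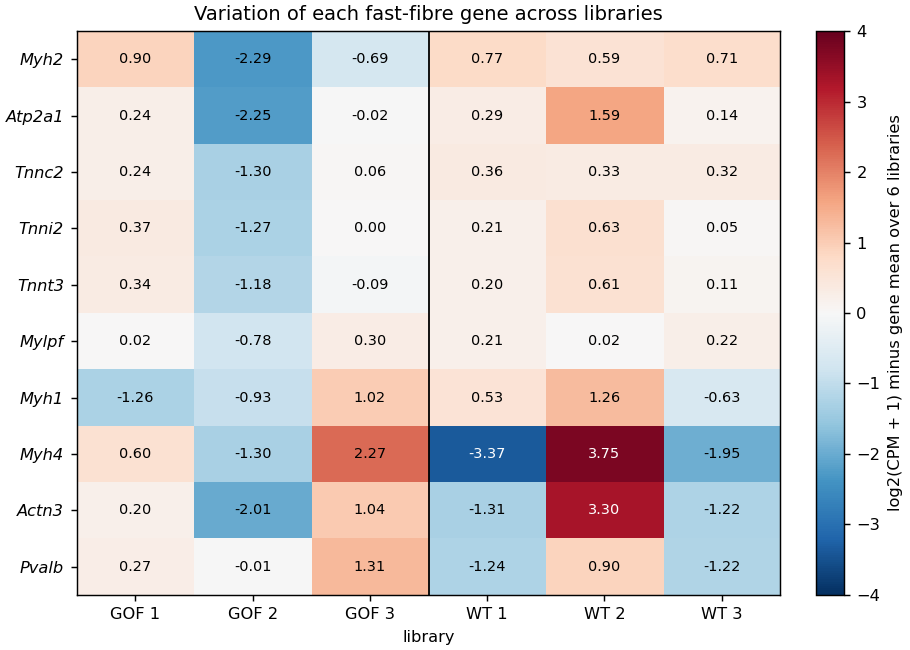
Heat map of log2(CPM + 1) minus the gene's mean over the 6 libraries, with genes in rows and the 3 Piezo1 GOF and 3 WT libraries in columns. Tnnc2, Tnni2 and Tnnt3 share 1 profile with a low in Piezo1 GOF replicate 2 (-1.30 to -1.18), and Myh4 and Actn3 share a high in WT replicate 2 (3.75 and 3.30).

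Slow-fibre genes and fibre-neutral sarcomere genes had lower median fold changes than the fast members, and 0 of them passed the edgeR test. Of 12 slow-fibre genes 12 were negative, with a median of -1.41. It was 0.0165 when scaled to fibre-neutral counts, where that of all genes was 1.47. Of 11 fibre-neutral genes 11 were negative, with a median of -1.25, beside 50.3% negative over all genes. At an unadjusted edgeR p under 0.05, 9 slow and 8 fibre-neutral genes were lower, against 9.59% of all genes. The genotypes did not overlap for 8 of the 12 slow and 5 of the 11 fibre-neutral genes, against 12.1% of all genes lower in this way. By DESeq2, 8 slow and 8 fibre-neutral genes were called lower, against 2.51% of all genes. The edgeR exact test called 5 slow genes and 1 fibre-neutral gene lower, against 1.76% of all genes, and voom called 0 of either, against 0.141%. The slow genes with the smallest p were Tnnc1, the slow and cardiac troponin C (-1.89 ± 0.45), Tnni1, the slow troponin I (-1.42 ± 0.40), Atp2a2, the SERCA2 pump (-1.83 ± 0.52) and Myh7 (-2.16 ± 0.61), with edgeR adjusted p between 0.114 and 0.146. The fibre-neutral genes with the smallest p were the Kelch proteins Klhl40 (-1.22 ± 0.39) and Klhl41 (-1.15 ± 0.39), telethonin (Tcap, -1.45 ± 0.50) and myotilin (Myot, -1.25 ± 0.44), with edgeR adjusted p between 0.171 and 0.188.

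**Figure D4:**
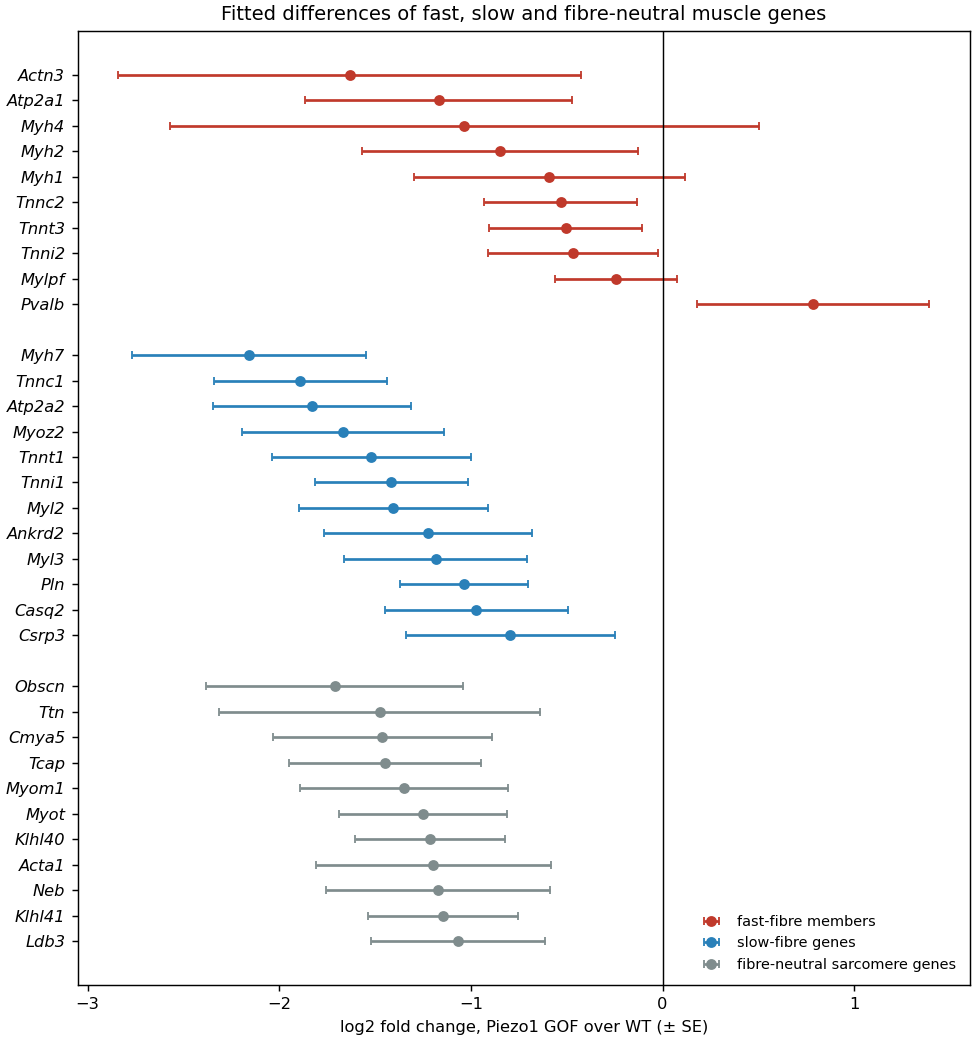
Log2 fold change of Piezo1 GOF over WT with its SE for the 10 fast-fibre members, 12 slow-fibre genes and 11 fibre-neutral sarcomere genes. The fast members run from -1.63 to 0.79, and the slow genes from -2.16 to -0.80.

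Whether fast genes differed less than slow ones was tested on ratios within a library, which cancel muscle content that both share. The log2 ratio of summed counts of the 10 fast members over the 12 slow genes was 0.47, -0.06 and 1.496 in Piezo1 GOF and 0.14, 0.18 and -0.97 in WT. The mutant mean exceeded the WT mean by 0.85, or 1.80-fold, with overlapping groups (two-sided exact permutation p = 0.3, and 0.4 after adjustment over 6 ratios). Each of the 5 pairs of fast and slow counterparts had a higher mean in Piezo1 GOF as well. Tnnt3 over Tnnt1 was at 0.550, 0.584 and 1.13 in Piezo1 GOF and at 0.488, 0.315 and 0.274 in WT. This pair showed no overlap, with each mutant value above each WT value, a log2 difference of 1.03 with the smallest p the test allows (exact p = 0.1; adjusted p = 0.4). Tnnc2 over Tnnc1 was at 0.954, 0.645 and 1.74 in Piezo1 GOF and at 0.710, 0.306 and 0.390 in WT, and overlapped through WT replicate 1 (difference 1.22; exact p = 0.2). The log2 differences were 0.84 for Tnni2 over Tnni1, 1.17 for Mylpf over Myl2 and 0.54 for Atp2a1 over Atp2a2, with overlapping groups and exact p between 0.2 and 0.4. The 6 differences stayed positive whichever library was left out.

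Set against the summed fibre-neutral counts of the same library, the members differed from each other. The log2 ratio of Tnni2 was -5.55, -5.59 and -5.58 in Piezo1 GOF and -5.65, -6.53 and -7.02 in WT. The mutant libraries nearly coincided (SD 0.0209, against 0.695 in WT) and lay above all WT libraries (difference 0.83; two-sided exact permutation p = 0.1, and 0.55 after adjustment over 11 ratios). With Acta1 left out of the sum the Tnni2 groups overlapped (difference 0.85; exact p = 0.2). Tnnc2 and Tnnt3 were similarly even in the mutant, with SDs of 0.0783 and 0.0817 against 0.741 and 0.662 in WT, and WT replicate 1 lay close to their mutant values (differences 0.75 and 0.81; exact p = 0.4 and 0.2). The Tnnt3 groups did not overlap when Ttn was left out of the sum or the mean log2 of the list was used (differences 0.73 and 0.77; exact p = 0.1 each). Pvalb was at -9.32, -8.01 and -7.95 in Piezo1 GOF and at -10.81, -9.93 and -12.00 in WT, again without overlap (difference 2.49; exact p = 0.1 and adjusted p = 0.55). In the edgeR fit with libraries scaled to these counts, Pvalb was the 1 member called, with a fold change of 2.38 (edgeR adjusted p = 0.0434), against 7.49% of all genes called higher under that scaling. There the median of all genes was 1.47, so relative to it the members' median of 0.66 was lower.

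Atp2a1 and Myh2 had nearly the same ratio in both genotypes, with differences of 0.07 and 0.04 (exact p = 1 and 0.8). Each changed sign when any of 3 libraries was left out, with ranges of -0.38 to 0.38 and -0.43 to 0.50. With Ttn left out of the sum, a choice made after seeing the data, the differences were -0.00223 and -0.03. Ttn took 54.4% to 61.6% of the fibre-neutral sum in Piezo1 GOF and 51.2% to 64.5% in WT. Myh4 had a difference of 2.48 with a wide spread in WT (SD 1.26 in Piezo1 GOF and 3.32 in WT; exact p = 0.3). For the summed members the difference was 0.45 (exact p = 0.5), and it was 0.00975 without WT replicate 3.

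**Figure D5:**
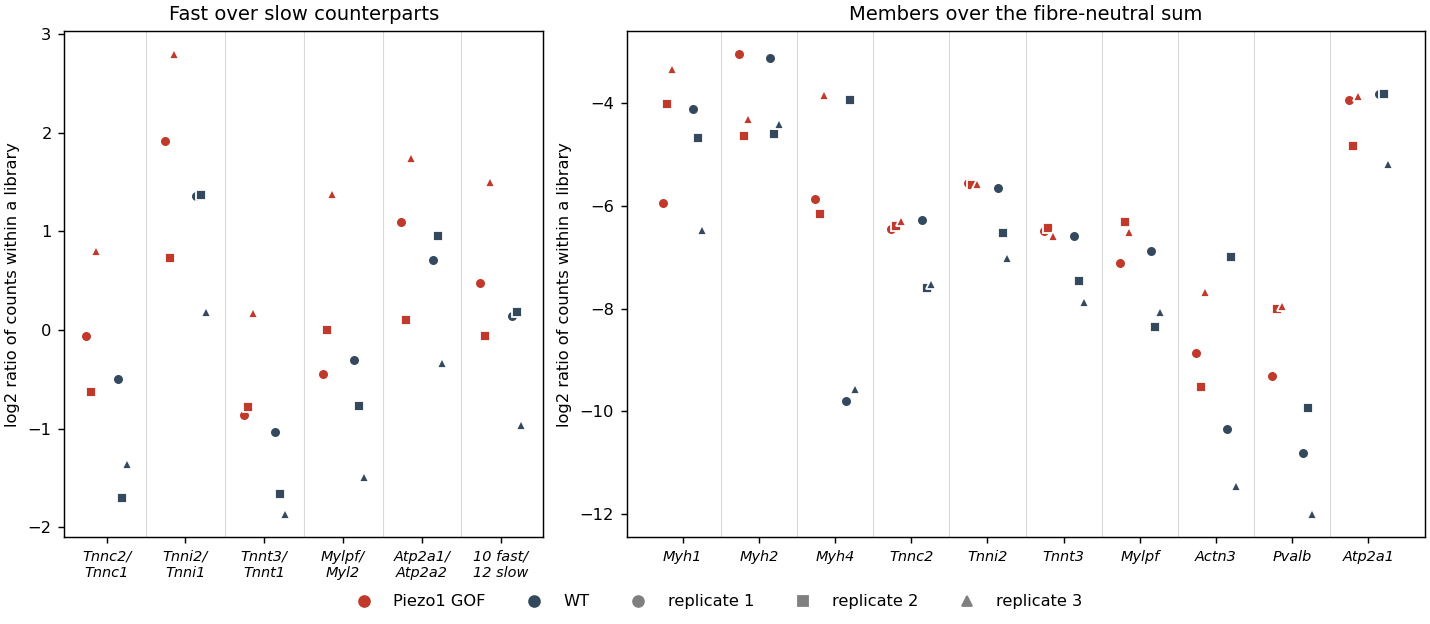
Log2 ratios of counts within each library, for fast genes over their slow counterparts (left panel) and for each fast-fibre gene over the summed fibre-neutral sarcomere genes (right panel), with red points for Piezo1 GOF, dark points for WT and symbols for replicates 1 to 3. The Tnni2 points of Piezo1 GOF coincide near -5.57, and Tnnt3 over Tnnt1 and Pvalb over the sum show no overlap between genotypes.

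The differences of the remaining members against the fibre-neutral sum were 0.65 for Myh1, 1.12 for Mylpf and 0.91 for Actn3, all with overlapping groups (exact p = 0.5, 0.2 and 0.5). Without WT replicate 3 that of Myh1 was -0.04 and that of Actn3 was -0.02. These are differences of mean log ratios. The edgeR fit compares group means of counts, so the 2 scales part for genes with 1 very high library, as for Myh4, whose fold change under the same scaling was 0.58.

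Other genes of fast fibres were read from a list of 14, of which 12 had enough counts to be tested. By edgeR's quasi-likelihood test 0 of 12 passed, and 1 was lower at an unadjusted p under 0.05, against 9.59% of all genes. DESeq2 and the edgeR exact test each called 1 lower, against 2.51% and 1.76% of all genes. By voom 0 were called. Of the 12, 11 values were negative and 1 was positive, beside 50.3% negative over all genes. Their median was -0.74 (0.62 when scaled to fibre-neutral counts, where that of all genes was 1.47). The smallest p belonged to Mylk2, the skeletal muscle kinase that phosphorylates the regulatory light chain. It was at 51.1, 23.4 and 56.6 CPM in Piezo1 GOF and at 73.6, 385 and 87.9 CPM in WT. All mutant libraries lay below all WT libraries, and WT replicate 2 was again the highest (-2.06 ± 0.64 SE; edgeR adjusted p = 0.167). The next were the glycolytic enzyme gene Pfkm (-0.87 ± 0.42), the glycerol phosphate dehydrogenase gene Gpd1 (0.86 ± 0.41) and the Z-disc gene Myoz1 (-0.88 ± 0.50), with edgeR adjusted p between 0.281 and 0.352.

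Regulators known to drive the fast programme had values on both sides of 0. Of 10 listed, 9 were tested and 0 passed the quasi-likelihood test. Their median was -0.00235 (1.57 when scaled to fibre-neutral counts, where that of all genes was 1.47). At an unadjusted p under 0.05, 3 were lower and 1 higher, against 9.59% and 10.2% of all genes. DESeq2 and the edgeR exact test each called 1 lower, against 2.51% and 1.76% of all genes. By voom 0 were called. Six4, a homeobox factor of muscle, was at 37.8, 21.4 and 22.5 CPM in Piezo1 GOF and at 42.9, 62.2 and 62.8 CPM in WT, without overlap (-1.04 ± 0.28 SE; edgeR adjusted p = 0.137). Eya1, a transcriptional cofactor gene, was negative as well (-1.03 ± 0.35), and the large Maf factor gene Maf was positive (0.66 ± 0.28), with edgeR adjusted p of 0.184 and 0.242. These factors are also made by cells other than muscle fibres. Of 7 developmental and myogenic genes 7 were negative, against 50.3% of all genes, and 0 passed. At an unadjusted p under 0.05, 2 were lower, against 9.59% of all genes. The median of the 7 was -1.09 (0.19 when scaled to fibre-neutral counts). Among them Myf6, a myogenic factor of mature fibres, had -1.11 ± 0.40 and Pax7, the satellite cell factor, had -1.73 ± 0.63 (edgeR adjusted p = 0.196 and 0.200).

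The genes outside the 10 whose pattern was most like the members' mean pattern were ranked among 10949 genes with a mean of at least 5 CPM, by the root-mean-square difference over the 6 libraries. They were Tppp (0.305), Myoz1 (0.319), 4931406H21Rik (0.337), Phkg1 (0.341) and Bcl2l11 (0.342). Phkg1 encodes the muscle catalytic subunit of phosphorylase kinase. Tppp was at 22.1, 8.23 and 19.1 CPM in Piezo1 GOF and at 15.6, 42.4 and 20.7 CPM in WT, low in Piezo1 GOF replicate 2 and high in WT replicate 2 as the members' mean was.

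Markers of other cells were read beside these results. All 10 tenocyte markers and all 8 macrophage markers were higher in every mutant library than in every WT library (medians 1.92 and 1.64), against 13.6% of all genes, and 0 of either passed the edgeR quasi-likelihood test. Other tools did call them higher. DESeq2 called 6 tenocyte and 8 macrophage markers (3.46% of all genes), the edgeR exact test 5 and 8 (3.36%), and voom 2 and 6 (0.720%). The 5 tested pericyte and smooth muscle markers had a median of -1.54, the 6 Schwann cell markers -2.05, the 6 endothelial markers -0.31, the 5 adipocyte markers 1.26 and the 4 tested erythroid markers 1.22, also with 0 called by the quasi-likelihood test. Of these 5 lists, DESeq2 called 2 pericyte and smooth muscle markers lower, against 2.51% of all genes, and 2 adipocyte markers higher. The exact test called 2 pericyte and smooth muscle markers and 1 Schwann cell marker lower, against 1.76% of all genes. It called 1 adipocyte marker higher, as did voom. Of the 5 pericyte and smooth muscle markers 3 did not overlap, against 12.1% of all genes lower in this way. Their median was the value of Des, which was highest in WT replicate 2, as the fibre-neutral sum was. In WT replicates 1 to 3 Acta2 was at 1946, 120 and 128 CPM and Myh11 at 966, 47.3 and 31.0 CPM, so both were high in replicate 1 alone. Schwann cell markers summed to 456 to 600.4 CPM in Piezo1 GOF and to 164 to 3469 CPM in WT. Their part in the values of the fast-fibre genes was not tested.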

How the data were processed

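RNA of 6 Achilles tendon libraries was made with a total-RNA kit (RamDA-seq), per the labels' protocols. The submitters' processing notes name bcl2fastq, STAR, RSEM, edgeR and mm10. The sources used here do not give versions, annotation or strand setting. The authors deposited RSEM expected counts per gene symbol, and 7.80% to 8.88% of a library's values were fractional. RSEM divides reads shared by similar genes.

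Here the expected counts were rounded and tested with edgeR 4.0.16 (R 4.3.3; quasi-likelihood, TMM scaling, filterByExpr with a minimum count of 10), two-sided with Benjamini-Hochberg adjustment over 13466 genes. An SE is the absolute log2 fold change over the square root of F. Ratios within a library were compared by two-sided exact permutation. DESeq2 1.42.0, the edgeR exact test, limma 3.58.1 voom with sample weights, other scalings, filters and leaving out each library were alternatives. The pipeline was tested on simulated data. Total counts were 8131527 to 17180856 per library, which sets the counting precision, and the common dispersion was 0.113. No pair of libraries of 1 genotype agreed within sampling noise (chi-square per degree of freedom 41.5 to 143).

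Groups follow the labelled genotype. The members and the gene lists were chosen with earlier results of these data known. All 10 members are named, as are up to 4 genes per muscle list with the smallest p and the 5 nearest patterns, except 1 gene that is not reported here. Coordinates and transcript lengths are from GENCODE vM21 on mm10, and promoters from RefSeq.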

Additional observations from a re-analysis of the deposited data

How the results depend on the processing

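The number of genes called over the whole table was 2, and it depended on the method: 882 by DESeq2, 689 by the edgeR exact test, 116 by limma voom, 165 with no filter on low counts, 1017 when scaled to fibre-neutral counts, and 0 to 228 when 1 library was left out, the 228 being without WT replicate 1. The fast-fibre members called were 0 under each of these except fibre-neutral scaling, which called 1 (Pvalb, 2.38). The members' median of -0.56 was 0.66 under that scaling, -0.19 by voom and -0.82 to -0.21 with 1 library left out. Fibre-neutral scaling turned the sign of Myh1 (0.71), Myh2 (0.0590), Myh4 (0.58), Tnnc2 (0.62), Tnni2 (0.72), Tnnt3 (0.70), Mylpf (1.005) and Atp2a1 (0.00994). Actn3 stayed negative (-0.0941). The same scaling moved the median over all genes from -0.00448 to 1.47. By voom Myh4 was 2.57 and Actn3 0.77, and the cause was not tested.

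Leaving out 1 library gave ranges of -2.25 to 3.67 for Myh4, -2.34 to 1.49 for Actn3 and -0.47 to 0.0338 for Mylpf. The log2 ratio of Myh1 over Myh2 ranged from -0.10 to 1.84, and ratios to the fibre-neutral sum from -0.0431 to 1.41 for Myh1, -0.43 to 0.50 for Myh2, -0.0173 to 2.21 for Actn3 and -0.38 to 0.38 for Atp2a1. Without Ttn in the sum, an alternative added after seeing the data, Myh2 was -0.0326 and Atp2a1 -0.00223. Deviations from the genotype mean correlated at -0.207, -0.137 and -0.0526 between libraries that share a replicate number. The labels name no batch. These correlations cannot settle whether the numbers pair libraries, since large differences between libraries of 1 genotype can hide a shared factor. With the replicate block 0 genes were called, and Myh4 was 2.54 and Actn3 0.36. With 3 libraries per genotype, exact tests could not go below 0.1. Myh4 and Actn3 had a wide spread within genotypes (pooled SD of 2.95 and 2.17), and the part of depth in their comparison was not tested.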
